A study of Homo sapiens with 6 samples.

Results

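Pairs of neighbouring exons that the deposited splicing table lists as mutually exclusive, and whose lengths differ by 0 or by a multiple of 3 bases, were examined in LNCaP cells, an androgen-responsive line derived from a human prostate cancer metastasis. They were chosen by coordinates only, and they are 3459 of the 9289 listed pairs with coordinates (37.2%), in 2157 genes. The libraries compared were 3 of LNCaP cells labelled as stably overexpressing Flag-KDM4B and 3 of LNCaP cells labelled as stably carrying the empty pLenti6 vector. All 6 were kept for 3 days in RPMI medium with 10% CFBS, and total RNA was sequenced. KDM4B is a histone demethylase that acts on methylated lysine of histone H3. The labels do not say whether the cells of a group were 1 clone or a pool, nor whether the libraries came from separate cultures, so p-values measure the spread between these libraries, which may be technical.

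In a mutually exclusive pair a transcript takes the first exon or the second, not both and not neither. When the lengths of the exons differ by a multiple of 3, exchanging one for the other leaves the reading frame downstream as it was, provided that both are coding, and the protein exchanges one stretch of residues for another. Many well-known pairs are of this kind, among them those of pyruvate kinase, dynamin and the Rab6 GTPase, where the exons are near copies of each other. Repression of one exon by proteins of the PTB, hnRNP, MBNL or RBFOX families is a common way in which one member of a pair is chosen.

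The KDM4B transcript measured 26.3, 27.2 and 25.8 FPKM (fragments scaled by gene length and library depth) in the libraries labelled KDM4B, against 24.7, 25.2 and 25.3 FPKM in the vector libraries. The groups did not overlap, yet the difference did not pass the test (limma on log2(FPKM + 1), adjusted p = 0.113) unless libraries were scaled by their median of ratios, when it was higher by 0.29 on the log2 scale (limma adjusted p = 2.86e-05). Neither value is a 2-fold difference. "KDM4B" below therefore means the libraries labelled so. All 9 listed markers of luminal prostate cells were expressed, at no less than 18.95 FPKM in any library. Of 6 markers of other cells 4 were found: PTPRC, CD3E and PECAM1, of leukocytes, T cells and endothelium, were at most at 0.08 FPKM in any library, and COL1A1, of fibroblasts, was at 2.92 ± 0.0981 FPKM in KDM4B and 2.36 ± 0.0586 FPKM in vector (SD, n = 3 each). Ribosomal RNA genes made up 10.5%, 8.14% and 10.2% of the summed FPKM in the KDM4B libraries and 0.473%, 0.144% and 0.147% in the vector libraries. This measure separated the groups completely, and its part in the results below was not tested.

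Among the 3459 pairs, 138 had exons of equal length, 1849 had both lengths divisible by 3, and the lengths of the other 837 and 773 left an equal remainder of 1 and of 2. The median exon was 118 bases long, and the median span of a pair was 3596 bases. The deposited table gives 1 read count per pair and library that joins both exons. The sums over the table were 5182338, 5373342 and 5192268 reads in the KDM4B libraries and 6262589, 6175705 and 6057758 reads in the vector libraries. For 1202 of the 3459 pairs, in 900 genes, the reads of each exon could be recovered from the skipped-exon events on the same exons and flanks. 1 further set was left out, and the other 2256 pairs have a joint count only, which carried 63.2% to 64.3% of the reads of all frame-keeping pairs in each library. They say nothing here of which exon was used. Of the 1202 recovered pairs, 1101 in 837 genes had at least 10 reads in every library and at least 10 reads of each exon over all libraries, and were tested. Their total over the 6 libraries lay between 84 and 335877 reads, with a median of 1417.

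The measure of exon choice was the first-exon share, the percentage of a pair's exon reads that fell on the exon coming first in the transcript. Reads grow with exon length, and reads from a transcript that holds both exons are counted on each, so a share is not the fraction of transcripts. A listed transcript holds both exons in 1051 of the 1101 tested pairs, and none does in the other 50. In those 1051 a share can differ through inclusion of either exon alone, without an exchange. The first-exon share can be compared between libraries for 1 pair, not between pairs. The fit was edgeR's quasi-likelihood test of exon by group, with adjustment over the 2997 recovered pairs of either frame class that passed the same read minimum. Its effect is a log2 odds ratio, positive where the first exon was favoured in KDM4B libraries.

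Exon choice passed the test in 13 of 1101 frame-keeping pairs (1.18%), in 12 genes, beside 1.63% of all 2997 pairs tested. The first exon rose in 7 of them and fell in 6, beside background rates of 0.834% and 0.801%. Some exon pairs were tested with more than 1 set of flanks, and with 1 event per exon pair 11 of 1036 were called. Among frame-changing pairs 36 of 1896 (1.90%) were called. The share of called pairs in the frame-keeping class was thus near the background, and the same held for pairs whose groups did not overlap, 163 (14.8%) beside 14.4%. An unadjusted p under 0.05 was reached by 120 frame-keeping pairs, beside 10.2% of all pairs. Other tools called fewer: DESeq2 called 2 frame-keeping pairs, beside 0.334% of all pairs, and limma on log ratios 2, beside 0.467%. The fit with a replicate block called 1, beside 0.334%. That fit draws its group effect from replicates 1 and 2 alone. KDM4B replicate 4 and vector replicate 3 have no counterpart of the same number.

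For most frame-keeping pairs the groups lay close together. The median absolute difference in first-exon share was 2.16 points, while the median SD between libraries was 3.01 points in KDM4B and 2.63 points in vector. The median log2 odds ratio was 0.01. In 958 pairs neither exon took 90% of the reads, while the first exon held at least 90% in 60 pairs and the second in 83. A transcript that holds both exons gives reads on each, so these counts do not measure an exchange between them. The exon with more reads differed between the group means in 77 pairs, of which 19 had groups that did not overlap and 1, in C16orf13, was called. A difference of at least 10 points was seen in 60 pairs, and in 29 of these the groups did not overlap.

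**Figure D1:**
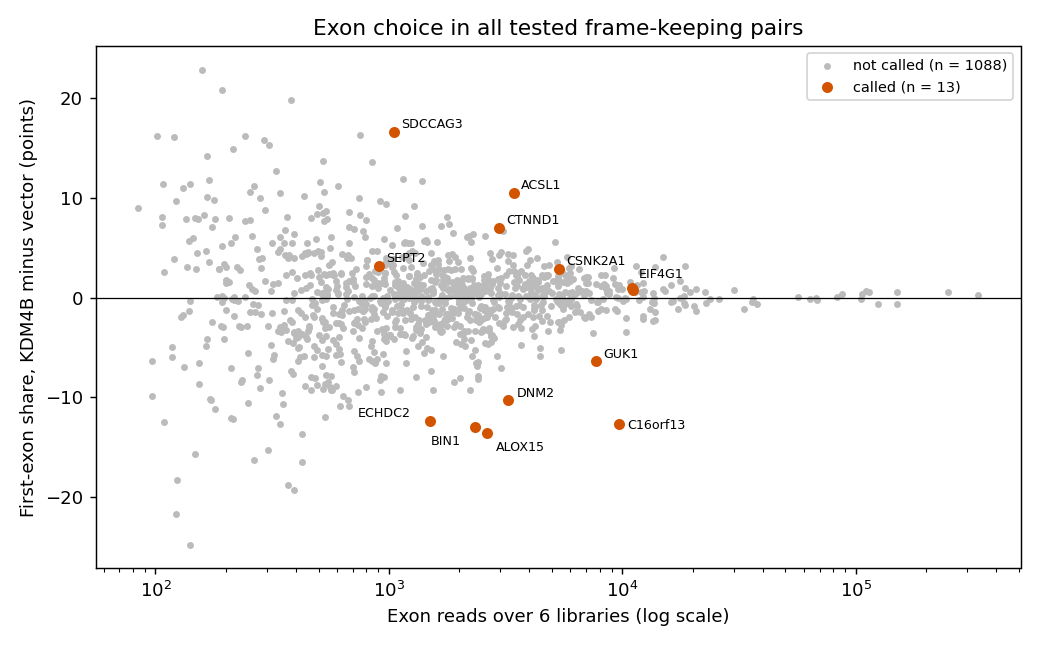
Difference in first-exon share (KDM4B minus vector, percentage points) for each of the 1101 tested frame-keeping pairs against its exon reads over the 6 libraries (log axis). Orange points are the 13 called pairs, labelled once per gene, and grey points the others; the widest differences, up to 24.7 points, belong to pairs with few reads and were not called.

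Pairs with exons of equal length that no listed transcript holds together were looked at separately. There were 11 such pairs among the tested ones, in 10 genes, and the class was formed with the data in view, so it is described and not tested. Of these 11, 2 were called, DNM2 and ACSL1, and in 7 the groups did not overlap. ATE1 counts 2 times among the 11 and among the 7, as the same exons with 2 sets of flanks. Among all 48 tested pairs of equal length, 2 (4.17%) were called and 13 (27.1%) had groups that did not overlap. Over all 2997 pairs tested, 1.63% were called and 14.4% had groups that did not overlap.

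DNM2 encodes dynamin 2, the GTPase that pinches vesicles off the plasma membrane, and its exons of 139 bases each are a known exclusive pair. They are at chr19:10906737-10906875 and chr19:10908056-10908194 on the plus strand, in the coordinates of the deposited table; the submitters' processing notes name GRCh38 and hg38, but only 12.6% of the frame-keeping pairs lay inside their gene on GRCh38.p14, so the build of all coordinates given here is uncertain. The first exon held 75.0%, 78.5% and 75.9% of the reads in KDM4B libraries, against 86.3%, 84.1% and 90.03% in vector libraries. Every KDM4B library was below every vector library. The first exon had 382, 432 and 363 reads in KDM4B and 477, 482 and 524 reads in vector, and the second had 127, 118 and 115 reads in KDM4B and 76, 91 and 58 reads in vector. The second exon was thus higher in KDM4B in reads as well as in share. The first-exon share averaged 76.5% ± 1.82 in KDM4B and 86.8% ± 3.00 in vector (SD, n = 3 each), with a log2 odds ratio of -1.01 (SE 0.18, edgeR adjusted p = 0.000727).

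ACSL1 encodes a long-chain acyl-CoA synthetase, which activates fatty acids for storage or oxidation. Its exons of 78 bases lie 66 bases apart, at chr4:185691553-185691630 and chr4:185691409-185691486 on the minus strand, and the second is listed only in transcripts that the authors' assembly added. The first exon held 82.8%, 88.6% and 92.6% of the reads in KDM4B libraries, against 78.1%, 76.6% and 77.7% in vector libraries. The lowest KDM4B library lay above the highest vector library, and the KDM4B libraries were the more spread. The second exon had 81, 61 and 35 reads in KDM4B, against 145, 152 and 146 reads in vector. The share of the first exon rose, with a log2 odds ratio of 1.09 (SE 0.20, edgeR adjusted p = 0.00100).

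PKM encodes pyruvate kinase of muscle type. Its first exon of 167 bases, at chr15:72495363-72495529, makes the PKM1 form, and the second, at chr15:72494795-72494961, makes PKM2, the form most proliferating cells use. The first exon held 1.14%, 1.07% and 0.986% of the reads in KDM4B libraries, against 1.45%, 1.72% and 1.26% in vector libraries. All KDM4B libraries were lower, by less than 1 point, and PKM2 dominated in both groups. The first exon had 77, 76 and 68 reads in KDM4B and 76, 85 and 63 reads in vector, which overlap, while the second had 6691, 7047 and 6826 reads in KDM4B and 5183, 4857 and 4932 reads in vector. The whole gene was higher in KDM4B, 485 ± 10.0 against 366 ± 6.14 FPKM (SD, n = 3 each). The shift in exon choice missed the threshold at a log2 odds ratio of -0.48 (SE 0.13, edgeR adjusted p = 0.0581), and without vector replicate 3 it passed at 0.0423.

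RAB6A encodes a GTPase of Golgi traffic, and its exons of 106 bases lie 66 bases apart. The first exon held 62.6%, 56.2% and 58.1% of the reads in KDM4B libraries, against 62.8%, 68.5% and 66.0% in vector libraries. The highest KDM4B library lay just under the lowest vector library, and the difference did not pass (log2 odds ratio -0.42, SE 0.17, edgeR adjusted p = 0.322). CACNA1D, a voltage-gated calcium channel, had only 16 to 26 reads of its pair in a library, and its first exon held 20.5% ± 4.95 in KDM4B and 42.2% ± 19.7 in vector (SD, n = 3 each). One vector library lay between the KDM4B libraries, and the pair was not called (edgeR adjusted p = 0.458). CALU encodes calumenin, a calcium-binding protein of the secretory pathway, and its exons of 194 bases are 73 bases apart. Its first-exon share was 75.3% ± 2.17 in KDM4B and 74.7% ± 0.976 in vector (SD, n = 3 each), with overlap (edgeR adjusted p = 0.947), although the gene itself was lower in KDM4B at 19.9 ± 0.160 against 40.7 ± 1.26 FPKM.

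ATE1, an arginyltransferase, has 1 pair of 129-base exons that appears with 2 sets of flanks. Its first-exon share was 39.2%, 32.4% and 25.3% in KDM4B libraries and 40.7%, 42.3% and 40.9% in vector libraries with one set of flanks. The groups did not overlap, but the KDM4B libraries were wide apart and the pair was not called (edgeR adjusted p = 0.508, and 0.794 with the other flanks). MTHFSD and YPEL5 were not called either (edgeR adjusted p = 0.843 and 0.951). In YPEL5 26, 30 and 44 reads skipped both exons in KDM4B libraries and 58, 43 and 58 in vector libraries. Its exon reads numbered 32 to 51 in a library, so many of its transcripts took neither exon. U2AF1, a subunit of the factor that recognises the 3′ splice site, is a known exclusive pair of 67-base exons, although a listed transcript holds both. Its first exon held 32.6% ± 1.09 in KDM4B and 27.99% ± 1.76 in vector (SD, n = 3 each), without overlap and without a call (log2 odds ratio 0.32, SE 0.15, edgeR adjusted p = 0.469). Of 38 genes listed as carriers of known exclusive exons, 22 had a frame-keeping row, 7 were recovered, 5 were tested and 1, DNM2, was called.

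**Figure D2:**
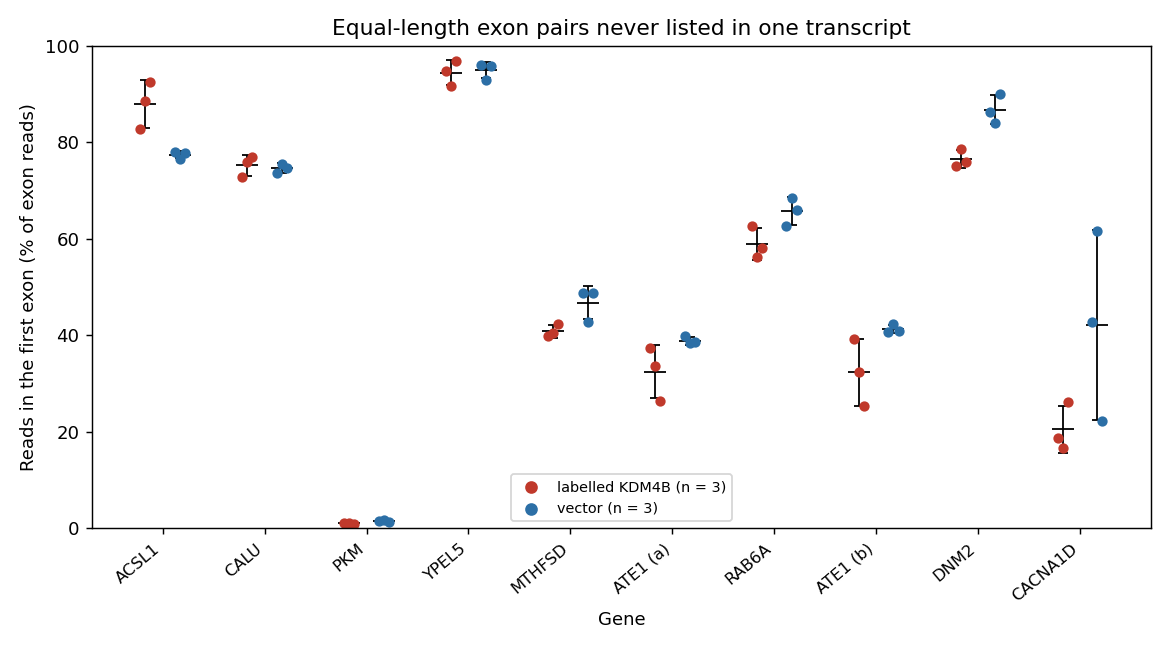
First-exon share (percent of exon reads) in each library for 10 of the 11 tested pairs with exons of equal length that no listed transcript holds together; red points are the 3 libraries labelled KDM4B, blue points the 3 vector libraries, bars the mean and SD, and ATE1 appears with 2 sets of flanks (a, b). DNM2 and ACSL1 were called; PKM stayed under 2% in every library.

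The called pairs with exons of unequal length are given gene by gene, and no common function was tested for them. In each of these pairs a listed transcript holds both exons. BIN1, an adaptor that bends membranes, has exons of 129 and 90 bases at chr2:127815049-127815177 and chr2:127808730-127808819. Its first exon held 13.7%, 22.1% and 12.7% of the reads in KDM4B libraries, against 30.9%, 25.5% and 30.9% in vector libraries. No KDM4B library reached the vector range, and the first exon fell (log2 odds ratio -1.10, SE 0.21, edgeR adjusted p = 0.00147). CTNND1 encodes p120-catenin, which binds cadherins at adherens junctions, and its exons measure 180 and 72 bases (chr11:57558966-57559145 and chr11:57561482-57561553). The first held 14.0%, 14.2% and 16.2% of the reads in KDM4B libraries, against 7.88%, 8.33% and 7.17% in vector libraries. The groups were well apart, and the first exon rose (log2 odds ratio 1.04, SE 0.20, edgeR adjusted p = 0.00130).

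SDCCAG3 encodes a protein of endosomal traffic, with exons of 150 and 69 bases (chr9:139304542-139304691 and chr9:139303451-139303519). The first held 88.0%, 92.4% and 88.5% of the reads in KDM4B libraries, against 78.0%, 74.9% and 66.2% in vector libraries. This was the widest difference among the called pairs, with no overlap, and the first exon rose (log2 odds ratio 1.68, SE 0.30, edgeR adjusted p = 0.000772). SEPT2 encodes a septin, a filament-forming GTPase of the cell cortex. Its first exon had 6, 7 and 1 reads in KDM4B libraries and 0 of 473 exon reads in the 3 vector libraries, which allows a share of up to 0.634% (3 counts over the group, counting error only), and it passed the read minimum through the KDM4B libraries alone. The first exon was a minor one there too, 3.19% ± 2.18 (SD, n = 3), and the call (edgeR adjusted p = 0.0178) was lost without any 1 of the vector libraries, at up to 0.117.

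ALOX15 encodes 15-lipoxygenase, which oxygenates polyunsaturated fatty acids, and its exons of 104 and 161 bases lie at chr17:4541876-4541979 and chr17:4541512-4541672. The first held 37.9%, 40.3% and 30.1% of the reads in KDM4B libraries, against 49.2%, 51.3% and 48.3% in vector libraries. The groups did not overlap, the first exon fell (log2 odds ratio -0.80, SE 0.17, edgeR adjusted p = 0.00371), and the call was lost without KDM4B replicate 4, at 0.0731. GUK1 encodes guanylate kinase, and its first exon held 34.4%, 36.3% and 36.7% in KDM4B libraries, against 39.9%, 42.8% and 43.8% in vector libraries. The groups were apart by a small step (log2 odds ratio -0.39, SE 0.10, edgeR adjusted p = 0.0287). ECHDC2, a protein with an enoyl-CoA hydratase domain, had 17.1%, 19.3% and 16.4% in KDM4B libraries, against 22.3%, 31.9% and 35.7% in vector libraries. The vector libraries were spread, and the first exon fell (log2 odds ratio -0.98, SE 0.24, edgeR adjusted p = 0.0248). Leaving out any of 4 of the 6 libraries ended the GUK1 call, at up to 0.226, and likewise the ECHDC2 call, at up to 0.268; for both these included KDM4B replicate 1 and vector replicates 2 and 3, with KDM4B replicate 2 for GUK1 and KDM4B replicate 4 for ECHDC2.

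CSNK2A1 encodes a catalytic subunit of casein kinase 2. Its first exon, of 117 bases, held 6.02%, 5.62% and 7.38% of the reads in KDM4B libraries, against 3.95%, 2.77% and 3.54% in vector libraries. All KDM4B libraries were higher, the first exon rose (log2 odds ratio 0.93, SE 0.20, edgeR adjusted p = 0.00724), but leaving out KDM4B replicate 4 or vector replicate 2 ended the call, at up to 0.0889. EIF4G1 encodes the scaffold of the cap-binding translation initiation complex, and 1 exon pair of 87 and 177 bases gave both of its called events, which share reads. The first exon had 30, 27 and 17 reads in KDM4B and 4, 12 and 2 reads in vector, beside 1663 to 2030 reads of the second in any library. It rose within a share that stayed below 2% (log2 odds ratio 1.87, SE 0.37, edgeR adjusted p = 0.00203), and the call was lost without vector replicate 3, at 0.0575; with the other flanks the adjusted p was 0.00434, lost without vector replicate 1 or 3 at up to 0.0851.

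C16orf13 had the lowest p of the frame-keeping pairs. Its exons of 163 and 79 bases lie at chr16:685612-685774 and chr16:684719-684797 on the minus strand. The first held 39.5%, 38.7% and 34.8% of the reads in KDM4B libraries, against 50.3%, 51.8% and 49.0% in vector libraries. The vector libraries stood near even shares and all KDM4B libraries lay below them. In reads the first exon had 494, 521 and 400 in KDM4B and 965, 1061 and 942 in vector. The second had 758, 825 and 748 in KDM4B and 955, 989 and 982 in vector. Both thus had fewer reads in KDM4B, and the first by more. These reads are not scaled for depth, and the sums over the deposited table were lower in every KDM4B library too. The reads of the second exon alone therefore do not show that it was used less. The first exon fell, with a log2 odds ratio of -0.74 (SE 0.09, edgeR adjusted p = 5.35e-06).

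**Figure D3:**
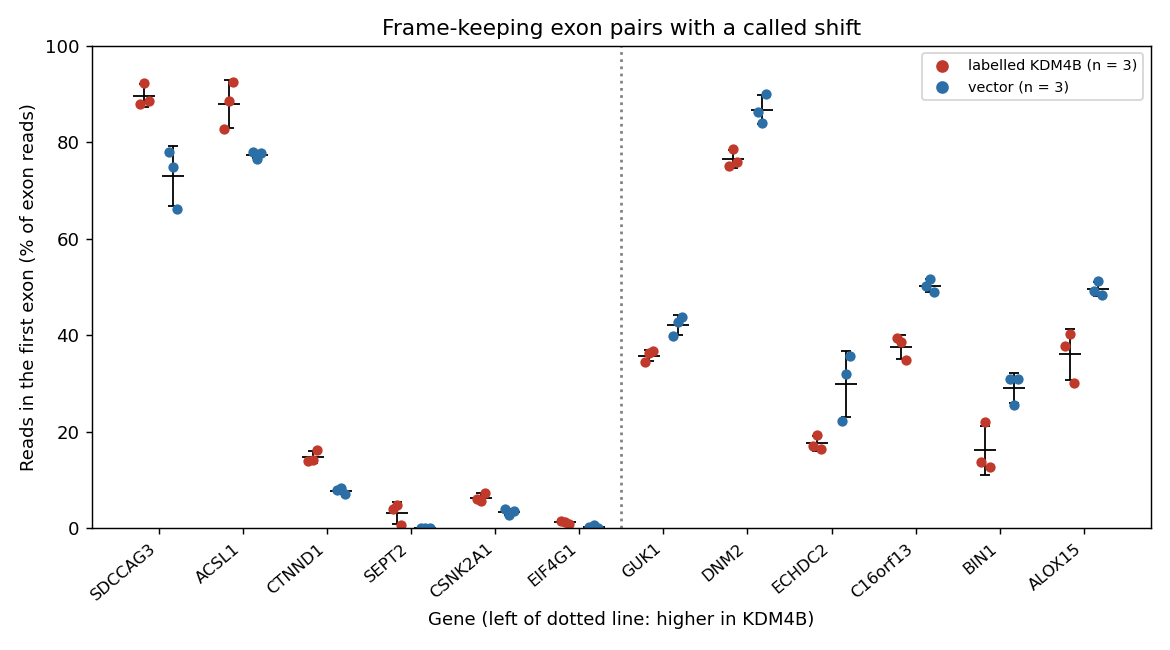
First-exon share (percent of exon reads) in each library for 1 called pair in each of the 12 genes with a call; red points are the 3 libraries labelled KDM4B, blue points the 3 vector libraries, and bars the mean and SD. Left of the dotted line the share was higher in KDM4B, right of it lower; the groups overlap in none of these 12.

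The pairs with the most reads showed small differences. GAPDH, the glycolytic dehydrogenase, had 335877 exon reads in all, and its first-exon share was 16.8% ± 0.173 in KDM4B and 16.6% ± 0.0703 in vector (SD, n = 3 each). The groups did not overlap, yet the difference was under 0.3 points and was not called (log2 odds ratio 0.03, SE 0.03, edgeR adjusted p = 0.869). The ribosomal protein genes RPLP0, RPL7A and RPL32 and the ferritin heavy chain gene FTH1 had overlapping groups and log2 odds ratios between -0.04 and 0.03. The equal-length pairs of CTTN, the actin regulator cortactin, EI24 and WBSCR22 had overlapping groups too (edgeR adjusted p between 0.866 and 0.954).

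At the other end, NFATC3, a transcription factor activated by calcineurin, had the widest difference of any frame-keeping pair. Its first exon held 57.1%, 52.2% and 54.5% of the reads in KDM4B libraries, against 78.6%, 78.6% and 81.0% in vector libraries. The groups were far apart, but each library had only 14 to 33 reads, and the pair was not called (log2 odds ratio -1.65, SE 0.62, edgeR adjusted p = 0.267). PPAP2A, a lipid phosphatase, came near the threshold. Its first exon held 8.35%, 10.3% and 11.1% in KDM4B libraries, against 6.93%, 7.002% and 6.92% in vector libraries, without overlap (log2 odds ratio 0.56, SE 0.16, edgeR adjusted p = 0.0612).

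Calls were then split by exon length and frame. Of the 11 called pairs with unequal exons, the longer exon gained in 4. Pairs with both lengths divisible by 3 were called in 9 of 567 cases (1.59%), and pairs with an equal remainder of 1 or 2 in 4 of 534 (0.749%), beside 1.63% of all pairs tested. Over the 1053 tested pairs with unequal exons, the longer exon took 65.4%, 65.7% and 65.5% of the summed reads in KDM4B libraries, against 64.9%, 65.1% and 65.1% in vector libraries. Every KDM4B library was higher, by 0.549 points between means (65.6% ± 0.146 against 65.0% ± 0.113, SD, n = 3 each), at a two-sided exact permutation p of 0.1, the smallest that 3 against 3 libraries allow. The sum is led by pairs with many reads: the median share over pairs differed by 0.277 points (exact permutation p = 0.5), and with 1 pair per gene the sum differed by 0.214 points (exact permutation p = 0.2).

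Transcripts that take neither exon of a listed pair were counted in the same sets, as reads that join the outer flanks. Of the 1202 recovered pairs, 313 had enough of them for a test of skipping against both exons together. It passed in 21 (6.71%), in 16 genes, beside 7.43% of all 835 sets tested and 41 of 522 frame-changing sets (7.85%). Sets of the same gene can share skipping reads, as in BIN1 and EIF4G1, so they are not independent. Skipping rose in 17 and fell in 4, beside background rates of 6.23% and 1.20%. In 6 of the 17 the vector libraries together held fewer than 10 skipping reads, so these sets met the read minimum only through the KDM4B libraries where skipping was high, and their calls give no independent support to the direction. They are sets of FASTK, SLC50A1, SLC25A35, PLEKHN1, SORBS3 and SDR39U1, and in the other 11 each group alone held at least 10 skipping reads. Among sets with both lengths divisible by 3, where skipping too keeps the frame if both exons are coding, 18 of 183 (9.84%) were called, in 14 genes. Among those with a remainder of 1 or 2, 3 of 130 (2.31%) were called, in 3 genes. Over all 835 sets it was 7.43%, and the difference between these classes was not tested. DESeq2 called 12 of the 313, beside 4.31% of all sets, limma on log ratios 2, beside 1.56%, and the fit with a replicate block 7, beside 2.40%; without any read filter 3 of 1095 sets were called.

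In ADAM15 and BIN1 a large part of the reads skipped both exons. ADAM15, a membrane metalloprotease, has exons of 75 and 72 bases at chr1:155033891-155033965 and chr1:155034380-155034451. Reads skipping both made up 74.1%, 68.3% and 76.3% in KDM4B libraries, against 51.8%, 46.0% and 42.4% in vector libraries. The groups were far apart and skipping rose (log2 odds ratio 1.62, SE 0.32, edgeR adjusted p = 0.000417). BIN1 reads skipping the 129-base exon and a 108-base exon made up 62.9%, 53.4% and 67.6% in KDM4B libraries, against 37.8%, 41.6% and 40% in vector libraries. Skipping rose (log2 odds ratio 1.27, SE 0.35, edgeR adjusted p = 0.0151), and this 129-base exon is the one whose share fell in the BIN1 pair above; the call was lost without vector replicate 1 or 3, at up to 0.0555. Both genes had a second called set, with the same exons and other flanks in ADAM15 and with the same skipping reads in BIN1. The second ADAM15 call was lost without vector replicate 3, at 0.0501, and the second BIN1 call with KDM4B replicate 1 or 4 or vector replicate 1 or 3 left out, at up to 0.0795. DBI, the acyl-CoA binding protein, skipped its listed pair in 97.4% ± 0.534 of reads in KDM4B and 94.0% ± 0.449 in vector (SD, n = 3 each; edgeR adjusted p = 0.0161), a call lost without vector replicate 1, at 0.0636.

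In the other genes where skipping rose, the exons were kept in most reads. AGAP3, a GTPase-activating protein for Arf, skipped both exons in 23.3%, 21.0% and 22.6% of reads in KDM4B libraries, against 13.7%, 11.7% and 11.1% in vector libraries. Skipping rose without overlap (log2 odds ratio 1.05, SE 0.32, edgeR adjusted p = 0.0260), which no longer passed when KDM4B replicate 1 or vector replicate 2 or 3 was left out (up to 0.102). FASTK, a protein of mitochondrial RNA processing, had 19, 18 and 18 skipping reads in KDM4B libraries, against 0, 0 and 1 in vector libraries, for exons of 423 and 180 bases. This was the lowest p among the frame-keeping sets (edgeR adjusted p = 1.81e-06), in a set that met the read minimum through KDM4B libraries alone but was also called without a read filter, at 1.79% ± 0.0543 of the reads in KDM4B and 0.0271% ± 0.0469 in vector (SD, n = 3 each). SLC25A35, a mitochondrial carrier, had 6, 1 and 5 skipping reads in KDM4B libraries and 0 of 236 reads in vector libraries, which allows up to 1.27%. SORBS3, an adaptor of focal adhesions, had 8, 2 and 3 skipping reads in KDM4B libraries and 0 of 231 in vector libraries, which allows up to 1.30%. SLC25A35 and SORBS3 likewise met the read minimum only through KDM4B libraries, and their calls (edgeR adjusted p = 0.0158 and 0.0190) were lost without vector replicate 1 or 3, and for SORBS3 also without vector replicate 2, at up to 0.0722. The 8 other called sets, all with more skipping in KDM4B, were 3 of EIF4G1, a second of FASTK, and 1 each of SLC50A1, a sugar transporter, CD320, the receptor for transcobalamin, PLEKHN1 and SDR39U1 (edgeR adjusted p between 0.00107 and 0.0343). The EIF4G1 sets with the 177-base exon hold the same skipping reads, 43, 24 and 28 in KDM4B libraries and 4, 4 and 11 in vector libraries. In these 8 sets skipping made up at most 5.09% of the reads on average in KDM4B, and leaving out 1 library ended the call in each except the FASTK set. PLEKHN1 had 2, 7 and 2 skipping reads in KDM4B libraries and 0 of 346 in vector libraries, which allows up to 0.867%. SLC50A1 had 12, 3 and 3 in KDM4B libraries and 2, 0 and 0 in vector libraries. The libraries whose removal ended a call were vector replicate 1 or 3 for EIF4G1, vector replicate 3 for SLC50A1, any vector library for PLEKHN1, any library for SDR39U1, and KDM4B replicate 1 or 2 or vector replicate 1 or 2 for CD320.

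Skipping fell in 4 genes. EXOC7, a subunit of the exocyst that tethers secretory vesicles, skipped its exons of 93 and 69 bases in 4.82%, 4.56% and 6.08% of reads in KDM4B libraries, against 18.9%, 12.5% and 12.3% in vector libraries. All KDM4B libraries were lower (log2 odds ratio -1.63, SE 0.42, edgeR adjusted p = 0.00982), and the call was lost without vector replicate 1, at 0.0606. PPFIA2, the synaptic scaffold liprin-alpha-2, skipped both in 77.3% ± 3.70 of reads in KDM4B and 90.2% ± 3.25 in vector (SD, n = 3 each; edgeR adjusted p = 0.0245). RTN3, a reticulon of the endoplasmic reticulum, did so in 64.2% ± 1.58 in KDM4B and 76.8% ± 1.05 in vector (edgeR adjusted p = 0.0425). LRRFIP2 did so in 83.2% ± 4.98 in KDM4B and 94.3% ± 1.71 in vector (edgeR adjusted p = 0.0476). The groups overlap in none of the 3. PPFIA2 no longer passed when KDM4B replicate 4 or vector replicate 2 or 3 was left out, the RTN3 call without KDM4B replicate 2 or any vector library, and the LRRFIP2 call without KDM4B replicate 1 or 4 or any vector library, at up to 0.153.

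**Figure D4:**
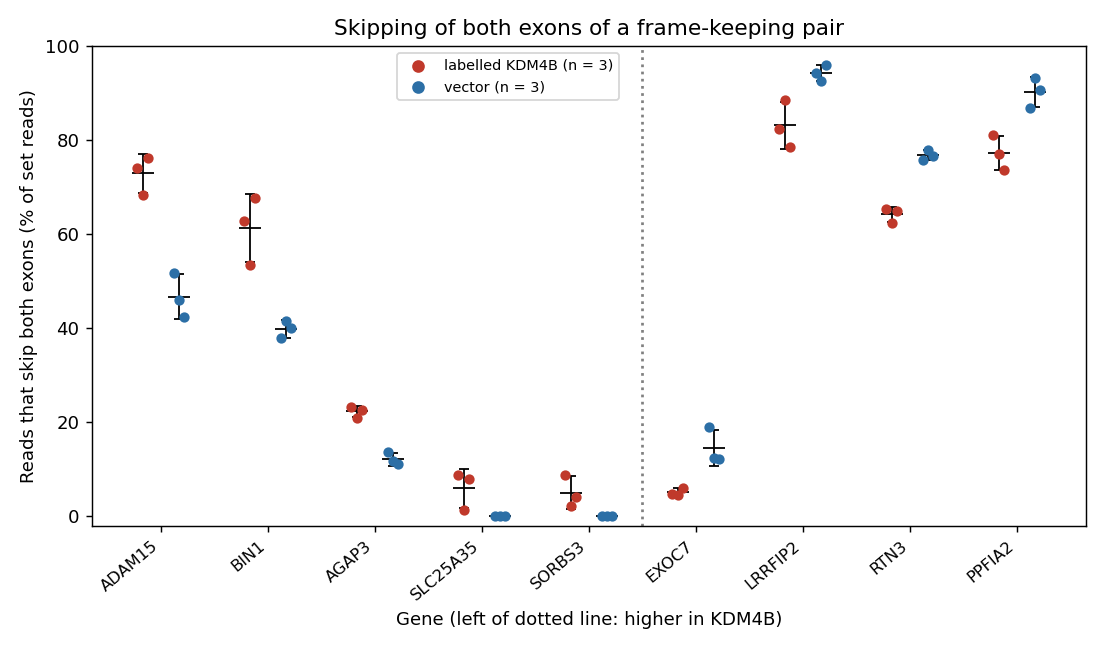
Reads that skip both exons of a pair, as a percentage of all reads of the set, in each library for the 9 named genes; red points are the 3 libraries labelled KDM4B, blue points the 3 vector libraries, and bars the mean and SD. Skipping was higher in KDM4B left of the dotted line and lower right of it; SLC25A35 and SORBS3 had 0 such reads in every vector library.

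Host genes of the tested pairs were mostly lower in KDM4B as deposited, as were genes as a whole. Of 833 host genes tested, limma on log2(FPKM + 1) called 108 higher and 556 lower in KDM4B, beside 73.7% of all 12148 genes called, 13.4% higher and 60.3% lower. Scaling by the median of ratios moved the median of all genes to -0.01, against -0.22 as deposited, and then 263 host genes were higher and 352 lower, beside 32.5% and 35.5%. The median of the host genes was -0.26 as deposited and -0.05 after scaling, both times somewhat below that of all genes. Of the 12 genes with a called exon choice, 2 were higher and 8 lower as deposited, and 5 were higher and 4 lower after scaling. DNM2 measured 51.8 ± 1.14 FPKM in KDM4B and 57.8 ± 1.46 FPKM in vector, and BIN1 37.8 ± 2.02 FPKM in KDM4B and 30.9 ± 1.502 FPKM in vector (SD, n = 3 each).

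Of 21 listed splicing regulators 20 were tested, and 5 were higher and 9 lower in KDM4B, or 12 higher and 4 lower after scaling. Over all genes tested 13.4% were higher and 60.3% lower as deposited, and 32.5% and 35.5% after scaling. ESRP1, a regulator of epithelial splicing, measured 17.2, 17.4 and 18.6 FPKM in KDM4B libraries, against 52.6, 48.5 and 48.8 FPKM in vector libraries. It fell under both scalings, by 1.44 on the log2(FPKM + 1) scale as deposited (limma adjusted p = 4.35e-10) and by 1.22 after scaling. MBNL1, which represses or activates exons by its position, fell to 14.7 ± 0.560 FPKM in KDM4B, against 20.3 ± 0.996 FPKM in vector, and HNRNPM rose to 136 ± 8.22 FPKM in KDM4B, against 103 ± 0.714 FPKM in vector (SD, n = 3 each), both under either scaling. PTBP1, a repressor of the PKM1 exon, measured 113 ± 4.68 FPKM in KDM4B and 120 ± 1.30 FPKM in vector (limma adjusted p = 0.0619), and after scaling it was higher in KDM4B by 0.14 on the log2 scale. Its direction thus turned with the scaling. Whether any of these levels bears on the pairs was not tested.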

How the data were processed

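Total RNA was taken up in Trizol and sequenced on Illumina libraries, per the labels' protocols. The submitters' processing notes list HISAT, StringTie and Cufflinks, with no role; which program called splicing events, and on which annotation, is not given. The authors deposited whole-number read counts per splicing event and library, joined over both forms and not normalized, and FPKM values per gene, per the file headers. For 2 skipped-exon events (SE) on the exons and flanks of 1 exclusive-exon event (MXE), skipping reads were (SE + SE - MXE)/2, and exon reads were SE minus skipping; 3247 sets were found over both frame classes and 2 were left out.

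Splice forms were tested with edgeR 4.0.16 (R 4.3.3; glmQLFit and glmQLFTest, TMM scaling, a term per library, 1 for the form and 1 for its interaction with group), two-sided, with Benjamini-Hochberg adjustment at 0.05. Gene levels were tested with limma 3.58.1 on log2(FPKM + 1) at a mean FPKM of at least 1; this scale understates the change of low genes. Shares were compared with exact permutation tests in scipy 1.17.1. The scripts were checked on simulated counts. DESeq2 1.42.0 was an alternative. Within a group, libraries differed beyond counting noise (chi-square per event 2.19 to 2.51), and none was treated as a copy. Intervals and floors cover counting error only. Titles of the KDM4B libraries carry a suffix that vector titles lack, so a batch, if any, and the group cannot be told apart.

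Named pairs were up to 12 called in each direction with at least 20 reads per library, 1 per gene and groups not overlapping, the 5 with the most reads, the 5 equal-length pairs with the most reads, tested pairs of the known list, and up to 5 called skipping sets in each direction. NFATC3, PPAP2A, FASTK, DBI, ATE1, MTHFSD and YPEL5 are described in addition where their values singled them out. The members and lists were chosen with earlier results of these data known. Exon and protein sequences are not used here, and 1 of the equal-length pairs is not reported here.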

Additional observations from a re-analysis of the deposited data

Results flagged for a closer look

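The exclusive-exon table holds 1 row without coordinates, named ARV7, that no comparison used. Its count was 8348, 8978 and 8132 reads in the libraries labelled KDM4B and 7044, 7816 and 7678 reads in the vector libraries, a mean of 8486.0 against 7513. The groups did not overlap, and the ratio of the means was 1.13. Per 10000 counts of the table the row had 16.1, 16.7 and 15.7 in KDM4B libraries and 11.2, 12.7 and 12.7 in vector libraries. Which splice forms the row joins is not known, and the difference was not tested.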

How the results depend on the processing

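Of the 13 calls of exon choice, 13 were called without a read filter and without TMM and 12 under a stricter filter. DESeq2 called 2 (36 at an unadjusted p under 0.05), limma on log ratios 2, and leaving out 1 library 9 to 14 (8 to 11 of them among the 13). Frame-changing pairs, called in 36, gave 8 with DESeq2, 12 with limma and 24 to 34 without 1 library. Skipping was called in 21 sets, against 3 without a filter (1095 sets tested), 33 under a stricter one (18 of them among the 21), 12 with DESeq2, 2 with limma and 8 to 26 without 1 library (8 to 17 of them among the 21): 12 without KDM4B replicate 1, 10 without vector replicate 1 and 8 without vector replicate 3. The cause was not tested. Of the calls that rest on few reads, those of SEPT2, SLC25A35, SORBS3, PLEKHN1 and SLC50A1 could not be refitted without some libraries, since too few reads were left. Only C16orf13 exon choice and the FASTK set of 423 and 180 bases passed under every alternative run. These runs reuse the same reads, and the FASTK set met the read minimum through the KDM4B libraries alone. Its passing is therefore no independent support. DNM2, ACSL1, BIN1, SDCCAG3 and CTNND1 exon choice passed without any 1 library. DNM2, ACSL1 and BIN1 were lost under DESeq2 (which kept C16orf13 and SDCCAG3), limma and the replicate block. SDCCAG3 was lost under limma and the block, and CTNND1 under DESeq2 and the block.

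No pairing of libraries by replicate number was visible in the exon shares (correlation of same-numbered deviations -0.03 and -0.05). The labels do not say whether same-numbered libraries were prepared together. The replicate block leaves only replicates 1 and 2 of each group to set the group effect. With it 1 exon-choice pair, 9 frame-changing pairs and 7 skipping sets were called, and 614 host genes, against 664 without the block.

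The longer-exon difference was 0.468 to 0.610 points without 1 library (exact permutation p = 0.2, the smallest that is possible with 1 library left out). Log2 odds ratios of uncalled pairs changed sign for WBSCR22 (-0.0990 with the block, -0.0424 to 0.214 without 1 library), FTH1 (0.0248 with the block, -0.0694 to 0.0039), CALU (-0.0189 with the block, -0.0223 to 0.144) and EI24 (-0.0421 to 0.140). Host gene counts without 1 library were 628 to 655. Of the 60 pairs that differed by at least 10 points, 45 had at least 20 reads in every library.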
